A study of Mus musculus with 48 samples.

Results

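Livers of male mice with no intact copy of Wfs1 (KO, genotype Wfs1 -/-) were compared with livers of heterozygous males (HZ), both given saline, so that the question was what differs once the second copy is also mutated. All saline mice of these genotypes in the series belong here, 8 HZ and 8 KO mice out of 48 mice with 1 array each, and they were taken by genotype and treatment from their titles. Both groups received 0.9% saline at 10 mL/kg i.p. daily for 12 weeks from an age of 4 to 6 weeks, were given 2 g/kg glucose in a tolerance test 24 hours after the last injection and were killed 24 hours after it at 16 to 18 weeks. Saline wild type (WT) mice (n = 8) and HZ and KO mice given valproic acid (VPA) at 300 mg/kg (n = 8 each) stand beside them where stated. The mutant allele is not restricted to the liver, the strain is not given in the sources used here, and only some exons are altered, so the array's probeset for the whole gene does not check the genotype.

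Wfs1 encodes wolframin, which sits in the membrane of the endoplasmic reticulum and which pancreatic beta cells in particular depend on, and its loss causes diabetes in Wolfram syndrome. Rodent liver is one of the most sexually dimorphic organs. Pulses of growth hormone in males hold up a male set of cytochromes P450, sulfotransferases, urinary proteins and transporters and hold down a female set, and feeding, glucocorticoids and the circadian clock act on many of the same enzymes.

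The values are log2 RMA values, in which a difference of 1 is 2-fold. Medians of the 16 arrays lay between 6.945 and 7.025, and correlations between pairs of arrays ran from 0.9712 to 0.9916 with no identical pair. KO replicates 2 and 8 stood farthest from the rest, with mean correlations with the other arrays of 0.9815 and 0.9816, and all markers of hepatocytes were at high levels (mean of 9 markers per mouse from 13.86 to 14.00). Wfs1 itself had log2 values from 8.19 to 8.53 (median 8.28) in HZ and from 8.13 to 8.42 (median 8.28) in KO mice. The groups overlapped and the log2 difference was -0.04 (SE 0.10, adjusted p = 0.921 from limma, two-sided exact permutation p = 0.536).

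Among saline mice, KO mice had lower male-biased and higher female-biased transcripts and lower bile acid and sterol synthesis enzymes than HZ mice. Saa1 and Saa2 were lower and endothelial markers were higher in KO than in HZ mice, with the WT means nearer to KO than to HZ in both. Of 35556 probesets, 496 (1.39%) differed at an adjusted p under 0.05 from limma, 250 higher in KO (0.703%) and 246 lower (0.692%). The median size of the log2 difference was 0.44 over these and 0.08 over all probesets, and 64 of them differed by more than 2-fold. At the thresholds of the study's methods, an unadjusted p under 0.001 with more than 2-fold, 68 passed (0.191%), of which 18 were higher (0.0506%) and 50 lower (0.141%). The 8 KO mice were all above the highest HZ mouse in 42 probesets and all below the lowest in 45 (0.245% together). Counts depended on single mice: without KO replicate 4 there were 294 calls and without KO replicate 5 there were 313. In a fit of the 16 arrays alone, with its own estimate of the spread, there were 214.

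**Figure D1:**
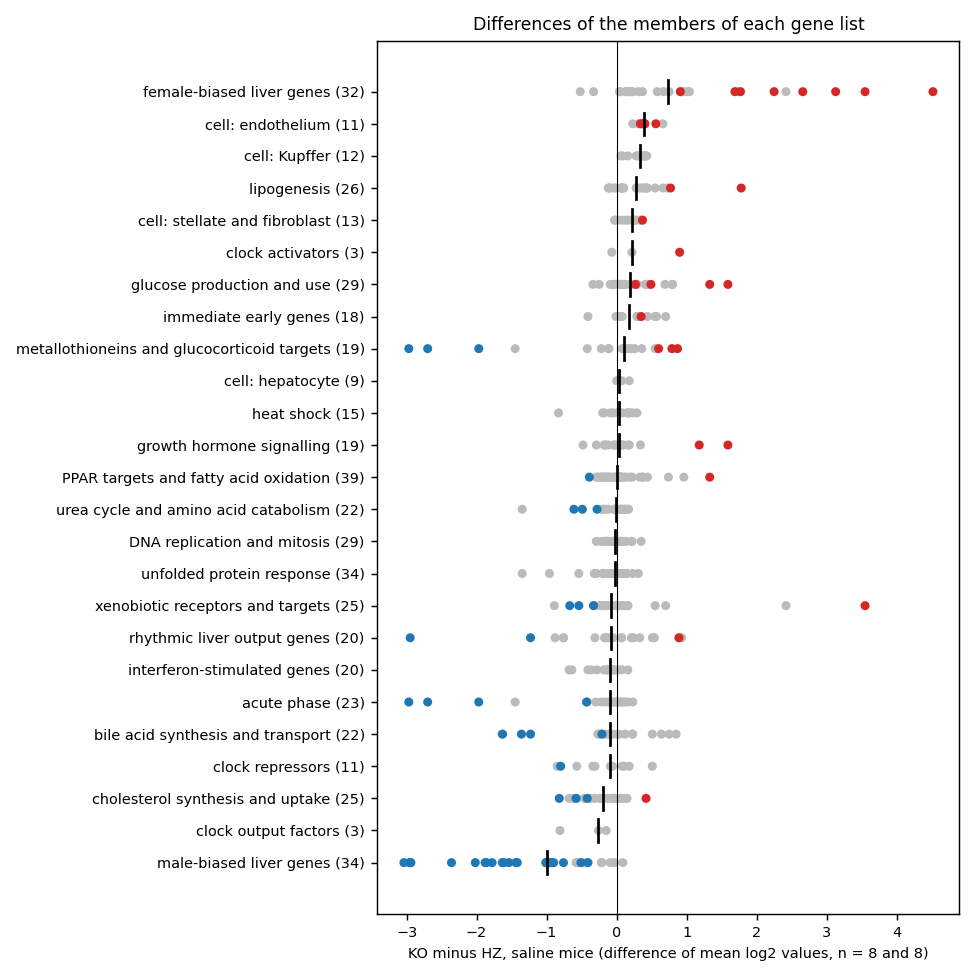
KO minus HZ difference of mean log2 values in saline mice (x axis, 8 mice per group) for each member of the gene lists (rows, number measured in brackets), with red for members higher and blue for members lower at an adjusted p under 0.05, grey for the others and a black bar for the list's median. The male-biased list lies lowest, with a median of -0.99, and the female-biased list highest, with a median of 0.74, against -0.02 over all genes.

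Male-biased liver genes fell as a group. Of 34 measured members 23 were lower in KO mice and 0 higher, or 67.6% called against 0.998% of all 19938 genes lower (1.98% in either direction), and the median log2 difference was -0.99 against -0.02 over all genes. Among the called members 17 kept the call in each of the 16 fits that left out 1 mouse, 12 in the fit of the 16 arrays and 18 without KO replicates 2 and 8. The list was chosen with earlier results of these data known. Some called members, among them Alas2, Neb and Slc15a5, had been reported by the study as lower in KO than in WT mice. The share called is therefore not independent support for a group change. Averaged over the 34 members, the log2 value per mouse ran from 10.00 to 10.53 in HZ mice. In KO mice it was 10.09 in replicate 1 and 10.05 in replicate 7, inside the HZ range, and in the other KO mice it was 8.85, 9.08, 8.11, 8.08, 9.20 and 9.25.

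Elovl3, an elongase of very long fatty acids, had log2 values from 9.14 to 10.86 (median 10.27) in HZ and from 4.78 to 10.81 (median 6.82) in KO mice. Of the KO mice 6 lay below every HZ mouse and replicates 1 and 7, at 10.81 and 9.97, lay among them. The log2 difference was -2.95 (SE 0.57, adjusted p = 0.00205, and 0.0641 in the fit of the 16 arrays). The fatty acid hydroxylases Cyp4a12b (-2.96, adjusted p = 0.00899, and 0.147 in the 16 arrays) and Cyp4a12a (-2.94, adjusted p = 0.0143) are near-identical copies, so their probesets may share signal. Cyp4a12a lost its call without KO replicate 4 or 5 (adjusted p up to 0.0636). The acetyltransferase gene Nat8f5 fell by 3.04 (SE 0.51, adjusted p = 0.00042), from a median log2 value of 9.66 in HZ to 6.44 in KO mice.

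Its relative Nat8 ran from 8.70 to 10.13 (median 9.77) in HZ and from 7.17 to 9.16 (median 7.82) in KO mice. Only 1 KO mouse, replicate 7, lay inside the HZ range, and the log2 difference was -1.86 (SE 0.26, adjusted p = 5.61e-05). Hsd3b5, a hydroxysteroid dehydrogenase, fell by 2.36 (adjusted p = 0.0422), a call that was lost when any of 10 mice was left out (adjusted p up to 0.154). Mup21, of the major urinary proteins that carry pheromones in male urine, fell by 2.02 (adjusted p = 0.000654), with log2 values from 8.95 to 10.11 in HZ and from 6.33 to 9.21 in KO mice. All 7 probesets shared between Mup genes were lower too, by 1.07 to 2.00 on the log2 scale in size. Gm21286, named for a predicted gene on the same chromosome, fell by 2.98 (adjusted p = 0.00957, and 0.104 in the fit of the 16 arrays). Mup genes are so alike that which of them changed cannot be told from these probesets.

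The complement genes C6 (-1.88, SE 0.32, adjusted p = 0.000607), C9 (-1.25, SE 0.24, adjusted p = 0.00208) and C8a (-0.93, SE 0.23, adjusted p = 0.0203), whose products form the membrane attack complex, were lower. C9 is in no list and was named after its value was seen. C8a lost its call without KO replicate 2, 4 or 5 (adjusted p up to 0.0869), in the fit of the 16 arrays (0.0938) and with the clock index (0.186). Called members of the male-biased list with HZ and KO mice fully apart were Alas2, the erythroid form of the first enzyme of heme synthesis, Neb, the giant muscle protein nebulin, and the transporter Slc15a5. For Alas2 the HZ mice ran from 10.40 to 11.20 and the KO mice from 8.15 to 10.17 (log2 difference -1.54, SE 0.24, adjusted p = 0.000216), while the other 6 measured erythroid markers did not pass. Susd4 (-1.78), Fitm1 (-1.61), Gstp1 (-0.90), Cyp2d9 (-0.76) and Ugt2b1 (-0.41) were lower with adjusted p from 0.000383 to 0.0097. In the fit of the 16 arrays Cyp2d9 and Ugt2b1 lost the call (adjusted p = 0.0592 and 0.0568). Of the 11 members that did not pass, 10 had negative log2 differences and Bcl6, a repressor of female genes in male liver, had 0.09 (adjusted p = 0.953).

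**Figure D2:**
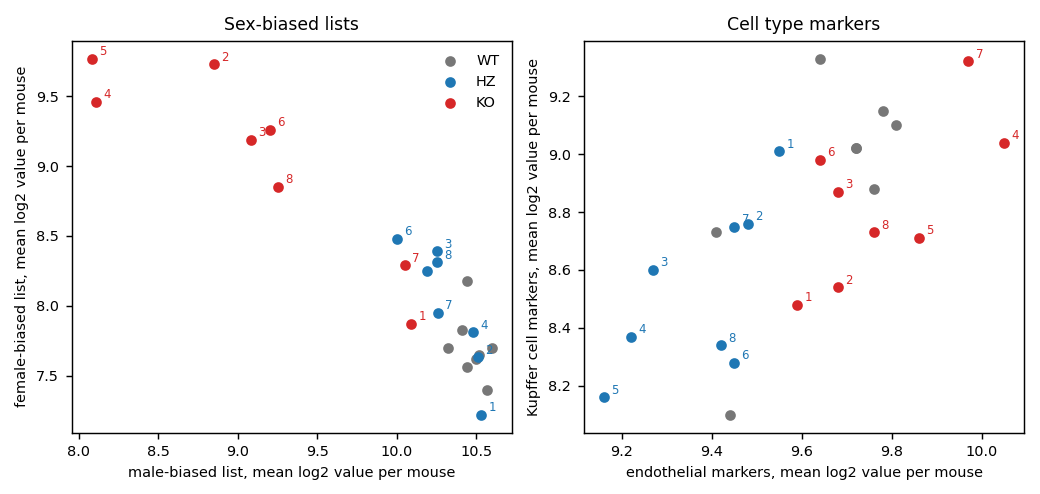
Mean log2 value per mouse over the members of 2 lists in each panel for WT (grey), HZ (blue) and KO (red) saline mice, with replicate numbers beside HZ and KO mice. On the left KO replicates 1 and 7 lie with the HZ mice at 10.09 and 10.05 of the male-biased list while 6 KO mice lie at 9.25 or lower, and on the right the endothelial list has no overlap between KO mice, which are higher, and HZ mice.

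Female-biased genes rose. Of 32 measured members 8 were higher and 0 lower, or 25% called against 0.978% of all genes higher, with a median log2 difference of 0.74 and 30 differences above 0. Of these 8 calls 4 held in each fit without 1 mouse, 5 without KO replicates 2 and 8, 2 in the fit of the 16 arrays and 2 with the clock index. Some of them, such as Sult3a1 and Lepr, had been reported by the study as higher in KO than in WT mice. The share of this list is not independent support either. Sult3a1, a sulfotransferase, lay between 3.31 and 4.19 (median 3.51) in HZ mice. In KO mice it ran from 3.47 to 12.17 (median 8.28), with 6 of 8 above every HZ mouse, and KO replicates 1 and 7 were the lowest of the group. The log2 difference was 4.52 (SE 0.95, adjusted p = 0.00448), and adjusted p = 0.0711 in the fit of the 16 arrays. All HZ values lay below 5, the level under which probesets were taken as dim, so the size of this difference is uncertain.

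Cyp2b13, a cytochrome P450, was close in pattern, at 4.67 to 5.12 (median 4.88) in HZ and 4.57 to 11.67 (median 9.19) in KO mice. Its log2 difference was 3.55 (SE 0.84, adjusted p = 0.0148, lost without KO replicate 5 at 0.059). The organic anion transporters Slc22a26 (3.13, adjusted p = 0.0017) and Slc22a27 (2.25, adjusted p = 0.00433, and 0.0865 in the fit of the 16 arrays) rose, and being near copies they may share signal. Hao2, a peroxisomal oxidase of hydroxy acids, rose by 1.77 (adjusted p = 0.0171) and Cyp17a1, a steroid hydroxylase, by 1.69 (adjusted p = 0.0378). These calls were lost in 3 and 9 of the 16 omissions (adjusted p up to 0.0713 and 0.113). Hamp2, a hepcidin gene, rose by 0.91 (adjusted p = 0.0428) and lost the call in 11 omissions (adjusted p up to 0.121).

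Lepr, the leptin receptor, was the female-biased member with no overlap between the groups. Its log2 values ran from 5.93 to 7.00 (median 6.10) in HZ and from 7.13 to 10.05 (median 9.26) in KO mice. KO replicate 7 was again the nearest to HZ, at 7.13, and the log2 difference was 2.66 (SE 0.35, adjusted p = 2.7e-05). In WT mice the mean was 6.67. Members that did not pass included Fmo2 (1.04, adjusted p = 0.0672), Slco1a4 (0.75, adjusted p = 0.0705) and Cyp2a22 (1.73, adjusted p = 0.104).

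WT mice lay beside the HZ mice in both sex-biased lists. The median KO minus WT difference was -1.29 over the male-biased and 0.99 over the female-biased members, and the median HZ minus WT difference was -0.05 and 0.25. These comparisons share the KO or the HZ mice with the one described, so they are given side by side only. Elovl3 had a mean of 11.36 for WT, 10.22 for HZ and 7.27 for KO mice (HZ minus WT -1.15, adjusted p = 0.471).

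Of 19 measured genes of growth hormone signalling 2 were higher (10.5% called, against 0.978% of all genes higher). Socs2, a growth hormone target that restrains the receptor, rose by 1.18 (SE 0.30, adjusted p = 0.031), from 8.89 to 9.61 in HZ to 9.30 to 11.39 in KO mice, and Igfbp1, a binding protein for insulin-like growth factor made under low insulin, rose by 1.59 (SE 0.40, adjusted p = 0.0246). Leaving out any of 8 mice for Socs2 or any of 4 for Igfbp1 ended the call (adjusted p up to 0.0696 and 0.075). The receptor Ghr (-0.16, adjusted p = 0.135), Igf1 (-0.11, adjusted p = 0.471), Stat5b (0.16, adjusted p = 0.551) and Cish (-0.29, adjusted p = 0.735) did not pass. The list's median difference was 0.04.

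**Figure D3:**
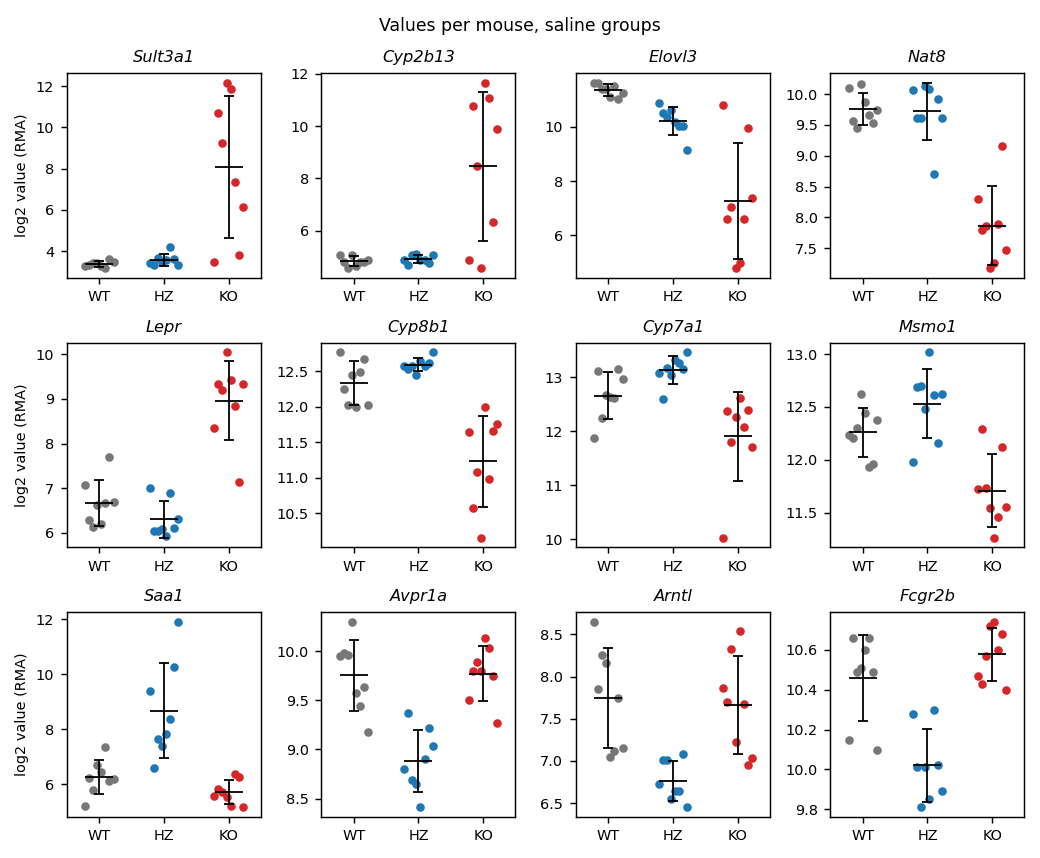
Log2 RMA values of 12 genes in each WT (grey), HZ (blue) and KO (red) saline mouse, with a black line for the mean and bars of 1 SD (n = 8). The KO mean lies away from the WT and HZ means in Lepr and Cyp8b1, and the HZ mean lies away from the WT and KO means in Saa1, Avpr1a and Fcgr2b. Single HZ and KO mice overlap in Avpr1a.

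Key enzymes of bile acid synthesis were lower in KO mice. Of 22 measured genes of bile acid synthesis and transport 4 fell and 0 rose (18.2% called, against 1.98% of all genes in either direction), with a median of -0.09. Cyp8b1, the sterol hydroxylase that sets the share of cholic acid, was the most separated of them, at 12.45 to 12.77 (median 12.57) in HZ and 10.15 to 12.00 (median 11.36) in KO mice. All 8 KO mice lay below all 8 HZ mice, with a log2 difference of -1.36 (SE 0.17, adjusted p = 1.4e-05), a call kept in every alternative tried. Cyp7a1, the rate-limiting enzyme of the classic pathway, ran from 12.59 to 13.47 (median 13.16) in HZ and from 10.02 to 12.61 (median 12.17) in KO mice. KO replicate 1, at 10.02, lay far below the other KO mice (lowest 11.70), and the log2 difference of -1.23 (SE 0.26, adjusted p = 0.00451) was -0.96 (adjusted p = 0.0104) without it. The Cyp7a1 call was lost in the fit of the 16 arrays (adjusted p = 0.0504) and, with a difference in the same direction, with the clock index (adjusted p = 0.129), and of the 4 calls of this list Cyp8b1 alone held in the 16 arrays.

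Cyp7b1, of the alternative pathway and also male-biased, fell by 1.63 (adjusted p = 0.00582, and 0.105 in the 16 arrays), and Baat, which conjugates bile acids, by 0.21 (adjusted p = 0.0392, lost in 10 omissions with adjusted p up to 0.104). Cyp27a1 (-0.05, adjusted p = 0.766), the bile acid receptor Nr1h4 (-0.25, adjusted p = 0.0659), its target Nr0b2 (0.23, adjusted p = 0.776) and the export pump Abcb11 (0.22, adjusted p = 0.155) did not pass.

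Of 25 measured genes of cholesterol synthesis and uptake 3 synthesis enzymes fell and 1 gene rose (16% called, against 1.98% of all genes), each called in all 16 omissions. Msmo1 ran from 11.98 to 13.02 (median 12.61) in HZ and from 11.26 to 12.29 (median 11.64) in KO mice, with a log2 difference of -0.82 (SE 0.14, adjusted p = 0.000496). Mvk (-0.58, adjusted p = 0.00839) and Nsdhl (-0.42, adjusted p = 0.0139) were also lower. Nsdhl lost the call in the fit of the 16 arrays (0.101) and with the clock index (0.087), and Mvk with the index (0.159). Mylip, which marks the LDL receptor for breakdown, was higher in every KO mouse than in any HZ mouse, at 9.14 to 9.37 against 8.65 to 9.08 (log2 difference 0.42, SE 0.08, adjusted p = 0.00145). Over the list 19 differences were negative and the median was -0.19, with Idi1 (-0.57, adjusted p = 0.0689) and Cyp51 (-0.62, adjusted p = 0.0775) just outside the threshold and the regulator Srebf2 at -0.07 (adjusted p = 0.811).

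Of 26 measured genes of fatty acid synthesis and storage 2 rose and 0 fell (7.69% called, against 1.98% of all genes), with a median of 0.28 and 21 differences above 0. Acaca, which makes malonyl-CoA, rose by 0.77 (SE 0.17, adjusted p = 0.00831), from a median of 10.74 in HZ to 11.65 in KO mice, and its second probeset by 0.98 (adjusted p = 0.00653). Pnpla3, a lipid droplet enzyme, rose by 1.78 (SE 0.43, adjusted p = 0.0179, lost without KO replicate 3 or 4 at up to 0.0775). In the fit of the 16 arrays neither passed (Acaca 0.157, Pnpla3 0.126). Fasn (0.66, adjusted p = 0.0856), Elovl6 (0.72, adjusted p = 0.0989) and Scd1 (0.07, adjusted p = 0.507) did not pass. Fabp5, a fatty acid-binding protein outside the list, rose by 1.56 (SE 0.35, adjusted p = 0.00969, and 0.0618 in the fit of the 16 arrays). For Fabp5 HZ mice ran from 8.12 to 10.40 and KO mice from 9.60 to 11.29.

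Of 39 PPAR targets and fatty acid oxidation genes 1 rose and 1 fell (5.13% called, against 1.98% of all genes), with a median of -0.00. Pdk4, a kinase that shuts off pyruvate oxidation in fasting, rose by 1.33 (SE 0.34, adjusted p = 0.0293, lost in 9 omissions with adjusted p up to 0.104), at 7.30 to 8.44 in HZ and 8.00 to 10.36 in KO mice. The receptor Ppara fell by 0.39 (SE 0.09, adjusted p = 0.0106, and 0.0586 in the fit of the 16 arrays), while its target Cpt1a had -0.27 (adjusted p = 0.333). Among 29 genes of glucose production and use 4 rose (13.8% called, against 0.978% of all genes higher), namely Igfbp1, Pdk4, Irs1 and Gckr. Irs1, an adaptor of the insulin receptor, was higher in all 8 KO mice (9.37 to 9.83) than in any HZ mouse (8.77 to 9.30), with a log2 difference of 0.49 (SE 0.10, adjusted p = 0.00666). G6pc (0.43, adjusted p = 0.225) and Pck1 (0.08, adjusted p = 0.937), the key enzymes of glucose output, did not pass.

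Among 25 xenobiotic receptors and targets 3 fell beside the rise of Cyp2b13 (16% called, against 1.98% of all genes). The retinal dehydrogenase Aldh1a1 ran from 12.93 to 13.50 in HZ and from 12.28 to 13.13 in KO mice (log2 difference -0.67, SE 0.10, adjusted p = 8.66e-05). Its relative Aldh1a7 fell by 0.54 (adjusted p = 0.00193, and 0.0641 in the fit of the 16 arrays). Cyp2c29 was lower in every KO mouse (13.04 to 13.47) than in any HZ mouse (13.49 to 13.78), a small difference of -0.33 (SE 0.06, adjusted p = 0.00133). Of 22 urea cycle and amino acid genes 3 fell (13.6% called, against 0.998% of all genes lower). Bhmt, of methionine metabolism, fell by 0.61 (adjusted p = 0.00302, and 0.0533 in the fit of the 16 arrays). Oat (-0.49, adjusted p = 0.0293) and Tdo2 (-0.28, adjusted p = 0.042) were lower too and lost the call in 6 and 9 omissions (adjusted p up to 0.0991 and 0.154). Of these 3 calls 0 held in the fit of the 16 arrays and 0 with the clock index.

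Of 23 measured acute phase genes 4 fell and 0 rose (17.4% called, against 1.98% of all genes), with a median of -0.09. Of these calls 2 held in every omission of 1 mouse, 4 in the fit of the 16 arrays and 0 with the clock index. Saa1, a serum amyloid A apolipoprotein made in inflammation, ran from 6.61 to 11.91 (median 8.10) in HZ and from 5.16 to 6.37 (median 5.64) in KO mice, with no overlap. The log2 difference was -2.97 (SE 0.59, adjusted p = 0.0025). WT mice had a mean of 6.26, so HZ minus WT was 2.42 (adjusted p = 0.05) and KO minus WT was -0.55 (adjusted p = 0.89).

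Its near copy Saa2 fell by 2.70 (adjusted p = 0.00969), Lcn2, an iron-sequestering defence protein, by 1.97 (adjusted p = 0.0178, lost without HZ replicate 8 or KO replicate 4 at up to 0.0545) and Saa4 by 0.43 (adjusted p = 0.0138, lost without KO replicate 4 at 0.0574). Orm2 had -1.45 (adjusted p = 0.0568), and Hp (-0.30, adjusted p = 0.136), Crp (0.01, adjusted p = 0.965) and the fibrinogen genes Fga, Fgb and Fgg (0.07 to 0.12) did not pass. The 12 neutrophil markers had a median difference of -0.01 with none called.

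Markers of liver endothelium were higher in KO than in HZ mice. Of 11 measured 7 rose and 0 fell, or 63.6% called against 0.978% of all genes higher, with a median of 0.39 and all 11 differences between 0.23 and 0.66. Their mean log2 value per mouse lay between 9.16 and 9.55 in HZ and between 9.59 and 10.05 in KO mice, without overlap, and between 9.41 and 9.81 in WT mice. The median difference was 0.14 for KO minus WT and -0.28 for HZ minus WT. Of the 7 calls 3 held in the fit of the 16 arrays (Stab2 was lost at 0.0509) and 3 with the clock index (Oit3 was lost at 0.0611). Fcgr2b, an Fc receptor of sinusoidal endothelium, ran from 9.81 to 10.30 (median 10.01) in HZ and from 10.40 to 10.74 (median 10.59) in KO mice (log2 difference 0.56, SE 0.10, adjusted p = 0.000643). Kdr, a receptor of vascular endothelial growth factor, rose by 0.40 (adjusted p = 0.00193) and the scavenger receptor Stab2 by 0.39 (adjusted p = 0.00258), both also without overlap.

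Oit3, Cdh5, Dnase1l3 and Stab1 rose by 0.34 to 0.40, and the calls of Cdh5, Dnase1l3 and Stab1 were lost in 3, 5 and 10 omissions (adjusted p up to 0.14). In bulk liver more cells of a type and more of their RNA per cell cannot be told apart. The 12 Kupffer cell markers all had positive differences, from 0.06 to 0.43 (median 0.33), and none passed in limma (3 at an unadjusted p under 0.05). Their median was -0.12 for KO minus WT, -0.42 for HZ minus WT and -0.24 for KO minus HZ in VPA mice. Of 13 stellate and fibroblast markers (7.69% called, against 1.98% of all genes) Reln rose by 0.37 (adjusted p = 0.00666) and the median was 0.22. Against WT their median was -0.03 for KO and -0.19 for HZ mice. The 9 hepatocyte markers had a median of 0.04. Which part other cell types have in the differences of liver genes was not tested. Of 13 lymphocyte markers (7.69% called, against 1.98% of all genes) Cd4 was lower (-0.34, adjusted p = 0.0233). The markers of neutrophils, bile ducts, pancreas and muscle had none called, none at an unadjusted p under 0.05 and medians from -0.01 to 0.00. Of 12 pericentral markers (8.33% called, against 1.98% of all genes) Oat was lower (list median -0.20). Of 9 periportal ones none passed (median 0.06, 2 at an unadjusted p under 0.05). Of 9 genes listed as fat cell markers (11.1% called, against 1.98% of all genes) Car3 was lower (-0.33, adjusted p = 0.00249). The other 8 did not pass (list median -0.07), so fat cell markers did not fall as a set.

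Of 19 metallothionein, metal and glucocorticoid target genes 3 rose, and 3 that are also acute phase genes, Saa1, Saa2 and Lcn2, fell (31.6% called, against 1.98% of all genes). Slc30a10, a manganese exporter, was higher in KO mice by 0.79 (SE 0.14, adjusted p = 0.000643), with a mean of 9.16 for WT, 8.38 for HZ and 9.17 for KO mice. The glucocorticoid targets Sgk1 (0.60, adjusted p = 0.00703) and Zbtb16 (0.87, adjusted p = 0.0286, lost in 8 omissions at up to 0.107) rose, but Fkbp5 (0.36, adjusted p = 0.371) and the metallothioneins Mt1 (0.18, adjusted p = 0.891) and Mt2 (0.16, adjusted p = 0.94) did not pass. Of 18 immediate early genes (5.56% called, against 1.98% of all genes) Klf6 alone rose (0.35, adjusted p = 0.0256, lost in 4 omissions at up to 0.089).

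Of the circadian clock, Arntl and Bhlhe41 differed between KO and HZ mice. In this feedback loop Arntl with Clock activates through E-box elements, period, cryptochrome and Bhlhe41 proteins repress that drive, nuclear receptors act on Arntl through ROR elements (RORE), and Dbp, Tef and Nfil3 act through D-box elements. A promoter with each element is shown for members the results turn on, from RefSeq (GRCm38.p6, 250 bases before to 50 after the gene start, 5′ to 3′, with motif letters on either strand in capitals). Arntl (chr7:113207261-113207560, plus strand) holds the RORE core TAGGTCA, Bhlhe41 (chr6:145865371-145865670, minus strand) an E-box CACGTG, and Per3 (chr4:151044616-151044915, minus strand) 2 D-boxes TTATGTAA.
Arntl: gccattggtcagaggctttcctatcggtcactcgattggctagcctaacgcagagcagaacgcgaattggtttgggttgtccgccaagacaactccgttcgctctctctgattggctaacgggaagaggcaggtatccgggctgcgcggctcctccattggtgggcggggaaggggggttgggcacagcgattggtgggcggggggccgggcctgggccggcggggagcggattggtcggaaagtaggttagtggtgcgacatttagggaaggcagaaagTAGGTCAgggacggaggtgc
Bhlhe41: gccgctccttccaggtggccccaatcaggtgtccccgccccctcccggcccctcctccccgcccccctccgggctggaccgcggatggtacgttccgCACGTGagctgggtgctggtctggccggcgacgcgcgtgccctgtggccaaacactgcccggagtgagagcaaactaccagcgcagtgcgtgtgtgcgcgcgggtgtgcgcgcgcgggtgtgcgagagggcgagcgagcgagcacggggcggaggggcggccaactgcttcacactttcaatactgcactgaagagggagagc
Per3: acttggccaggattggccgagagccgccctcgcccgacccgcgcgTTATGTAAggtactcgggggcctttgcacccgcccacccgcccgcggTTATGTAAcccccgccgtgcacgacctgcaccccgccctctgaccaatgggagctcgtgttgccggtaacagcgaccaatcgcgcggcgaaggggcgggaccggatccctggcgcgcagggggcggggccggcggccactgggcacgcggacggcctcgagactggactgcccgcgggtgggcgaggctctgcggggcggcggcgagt
Of 32851 such promoters 2.61% held the RORE core, 7.15% the E-box and 1.06% a D-box (TTATGTAA or TTACGTAA), and among 13 clock and rhythmic genes searched that have a promoter there, Per1, Nr1d1 and Ciart included, 2 held the RORE core, 5 the E-box and 1 a D-box. A match is a run of letters and not evidence of binding.

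Arntl ran from 6.45 to 7.08 (median 6.69) in HZ and from 6.95 to 8.54 (median 7.69) in KO mice, with 6 of 8 KO mice above every HZ mouse. Its log2 difference was 0.90 (SE 0.23, adjusted p = 0.0297, lost in 7 omissions at up to 0.103). Bhlhe41 ran from 6.10 to 6.81 (median 6.49) in HZ and from 4.85 to 6.39 (median 5.82) in KO mice and fell by 0.80 (SE 0.17, adjusted p = 0.00493). These were the called genes among 3 activators, 11 repressors and 3 output factors (33.3%, 9.09% and 0% called, against 1.98% of all genes). Clock (0.22, adjusted p = 0.316), Dbp (-0.81, adjusted p = 0.182), Per3 (-0.57, adjusted p = 0.303), Nr1d2 (-0.34, adjusted p = 0.16) and Cry1 (0.51, adjusted p = 0.119) did not pass.

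Of 20 rhythmic liver genes (15% called, against 1.98% of all genes) Elovl3 and Cyp7a1 fell and Avpr1a, a vasopressin receptor, rose. Avpr1a ran from 8.41 to 9.37 (median 8.85) in HZ and from 9.27 to 10.13 (median 9.80) in KO mice (log2 difference 0.89, SE 0.14, adjusted p = 0.000145), with a WT mean of 9.75. A clock index was formed per mouse over 14 clock genes, as the mean z score of the activating-phase genes minus that of the opposite-phase genes. It ran from -3.005 to -1.513 (mean -2.251) in HZ and from -1.848 to 0.497 (mean -0.937) in KO mice. The WT mean was -0.471. The hour of death is not given in the sources used here, so the index cannot tell clock phase from amplitude or hour of killing. With this index as a covariate 141 probesets were called in place of 496, of which 132 were among the 496. The index is itself made from these arrays, and its mean differed between HZ and KO mice. Such a fit can therefore take out part of the genotype difference itself. The part of the index in the differences was not tested beyond this fit. Lepr (2.47, adjusted p = 0.00196), Cyp8b1 (-1.43, adjusted p = 0.000123), Nat8 (-1.67, adjusted p = 0.00345) and Avpr1a (0.65, adjusted p = 0.0115) kept their calls with it, and Saa1 (-2.41, adjusted p = 0.0894), Acaca (0.56, adjusted p = 0.232) and Sult3a1 (3.91, adjusted p = 0.0946) did not. The difference of Slc30a10 went from 0.79 to 0.44 (adjusted p = 0.0585), that of Pdk4 from 1.33 to 0.54 (adjusted p = 0.678) and that of Ppara from -0.39 to -0.22 (adjusted p = 0.409).

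The same genotype comparison in VPA mice, which are other animals, called 106 probesets (0.298%). Of the 496 called in saline, 320 (64.5%) had the same sign in VPA mice, against 44% of all probesets, and 18 were called in both with the same sign. Elovl3 had -2.93 in VPA mice (adjusted p = 0.00908) beside -2.95 in saline, Nat8 -1.15 (adjusted p = 0.031), C6 -1.65 (adjusted p = 0.00999), Cyp7b1 -1.69 (adjusted p = 0.0152), Slc22a27 2.08 (adjusted p = 0.0269) and Cyp17a1 1.96 (adjusted p = 0.0284). For Sult3a1 (3.26, adjusted p = 0.147) and Lepr (1.46, adjusted p = 0.0512) the VPA difference did not pass. Over the lists the VPA median was -0.83 for male-biased and 1.05 for female-biased genes and -0.00 for endothelial markers, against -0.99, 0.74 and 0.39 in saline. For bile acid and cholesterol genes it was 0.07 and 0.16, against -0.09 and -0.19 in saline. Cyp7b1 apart, the enzymes named in these lists did not pass in VPA mice, with Cyp8b1 at -0.46 (adjusted p = 0.347), Cyp7a1 at 0.17 (adjusted p = 0.902) and Msmo1 at 0.14 (adjusted p = 0.835). In the limma test of saline against VPA differences Msmo1 passed (adjusted p = 0.0165), while Cyp8b1 (0.102) and Cyp7a1 (0.0817) did not. Of the 11 endothelial markers 0 passed that test and 8 had an unadjusted p under 0.05.

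**Figure D4:**
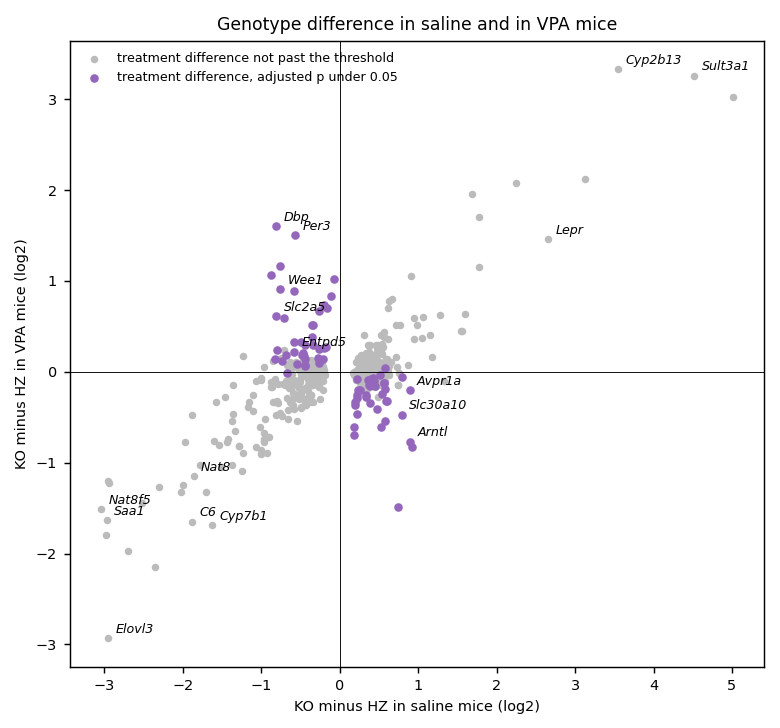
KO minus HZ log2 difference in saline mice (x axis) and in VPA mice (y axis) for each probeset called in saline or in the treatment difference, with purple for a treatment difference at an adjusted p under 0.05. Elovl3 lies near -3 on both axes, while Dbp and Per3 lie below 0 in saline and above 0 in VPA mice.

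Tested directly, the difference of KO minus HZ between saline and VPA passed for 76 probesets (0.214%), 37 higher in saline and 39 lower, and 74 of them had opposite signs under the treatments. No member of either sex-biased list was among them in limma, while 4 male-biased and 5 female-biased members had an unadjusted p under 0.05. The smallest adjusted p belonged to Entpd5, a nucleotide phosphatase of the endoplasmic reticulum, which was -0.58 in saline and 0.22 in VPA mice (treatment difference -0.80, adjusted p = 0.000211). In saline its KO mice (10.35 to 10.86) lay below all HZ mice (10.96 to 11.39). Slc30a10 (0.79 and -0.47, adjusted p = 0.00106), Car5a, a mitochondrial carbonic anhydrase (-0.35 and 0.38, adjusted p = 0.00225), Per3 (-0.57 in saline, treatment difference -2.07, adjusted p = 0.00225) and Hsd17b10, a mitochondrial dehydrogenase (-0.44 and 0.06, adjusted p = 0.00257), came next, each pair of values being saline and VPA.

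Clock genes were among them. Of 17 measured activators, repressors and output factors 8 passed the treatment difference, against 65 of all 19938 genes (0.326%), among them Dbp (-0.81 and 1.60, adjusted p = 0.00257), Arntl (0.90 and -0.77, adjusted p = 0.0121), Clock (0.22 and -0.46, adjusted p = 0.0165) and Nr1d2 (-0.34 and 0.52, adjusted p = 0.0111). The mean of the clock index was 1.766 in HZ and -0.207 in KO mice given VPA, so the order of the genotypes was opposite to that in saline. With the index as a covariate 0 probesets passed the treatment difference in limma (1954 at an unadjusted p under 0.05). The index holds 8 genes that themselves passed this difference, so the covariate takes out part of the contrast. The 0 calls therefore cannot show which part of the difference goes with the clock. Without the covariate 3925 were at an unadjusted p under 0.05.

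Genes near Wfs1 were examined because a targeted allele brings along its flanking chromosome. Among the 100 nearest measured genes on each side, by their order in GRCm38.p6, 6 were higher and 5 lower in KO than in HZ mice (5.5% called, against 1.94% of the other 19738 genes). The 50 nearest on each side held 1 call (1%) and those 51 to 100 genes away 10 (10%). Each gene was counted by its probeset with the highest mean. Ppargc1a, 49 genes away, did not pass by that probeset (0.44, adjusted p = 0.236), but another of its probesets did (0.63, adjusted p = 0.041). In VPA mice that other probeset had 0.78 (adjusted p = 0.0218). Abhd1, a hydrolase gene 91 genes from Wfs1, stepped up with each mutant copy, with a mean of 8.69 ± 0.31 for WT, 10.33 ± 0.16 for HZ and 10.95 ± 0.25 for KO (SD, n = 8 each). Its KO mice (10.54 to 11.23) lay above all HZ mice (10.07 to 10.50), by 0.61 (SE 0.16, adjusted p = 0.0351, two-sided exact permutation p = 0.000155, the smallest this design allows), and in VPA mice the difference was 0.70 (adjusted p = 0.029).

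The limma call for Abhd1 was lost in 9 omissions, with adjusted p up to 0.0953 and a log2 difference from 0.57 to 0.67. Atraid, 87 genes away on the same side, fell by 0.30 (SE 0.05, adjusted p = 0.000348), with KO mice at 11.18 to 11.60 and HZ mice at 11.64 to 11.83. Gckr, the glucokinase regulator, rose by 0.27 (adjusted p = 0.0392, lost in 11 omissions at up to 0.126) and Fndc4 by 0.34 (adjusted p = 0.0202, lost in 6 at up to 0.065). On the other side Rell1 (0.57, adjusted p = 0.00161), Pgm2, a phosphoglucomutase (0.35, adjusted p = 0.00656, and 0.0865 in the fit of the 16 arrays), and G6pd2 (0.62, adjusted p = 0.022, lost in 6 omissions at up to 0.0734) were higher. Ugdh, which makes UDP-glucuronic acid (-0.69, adjusted p = 0.00217), and Rbm47, an RNA-binding protein gene (-0.44, adjusted p = 0.00163), were lower there. Sh3bp2, on the side of Abhd1 and the called gene nearest to Wfs1 at 33 genes, was also lower (-0.41, adjusted p = 0.0025, and 0.058 in the fit of the 16 arrays). Rell1, Pgm2 and Rbm47 had HZ minus WT differences of -0.46, -0.33 and 0.42, so WT and KO means lay close together.

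**Figure D5:**
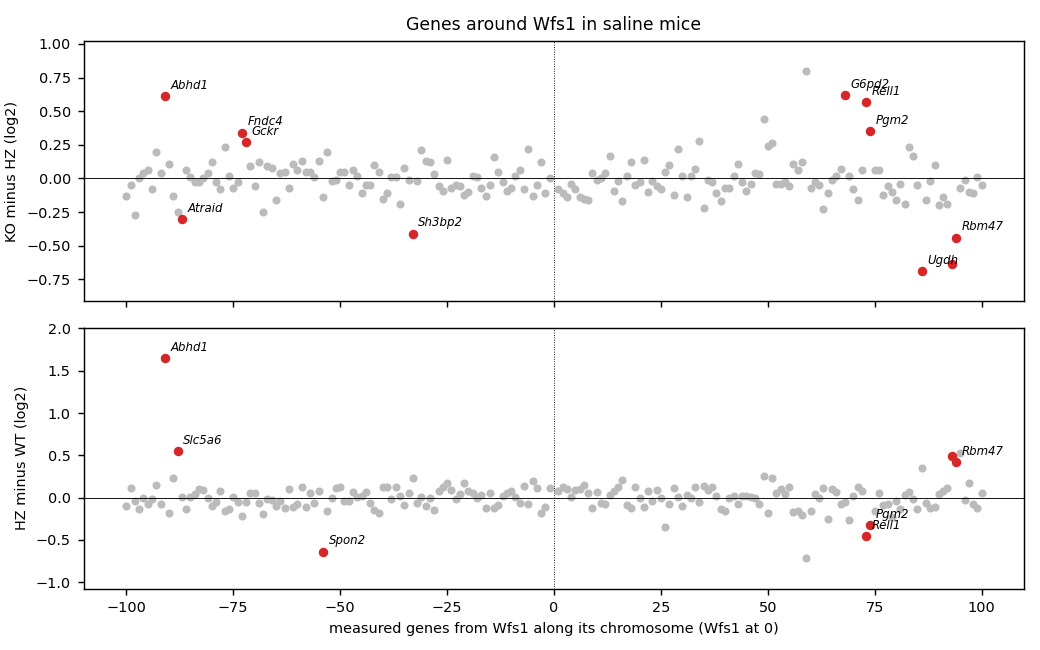
Log2 difference of KO minus HZ (upper panel) and HZ minus WT (lower panel) in saline mice for the 100 nearest measured genes on each side of Wfs1, placed by gene order with Wfs1 at 0 and in red at an adjusted p under 0.05. Abhd1 lies 91 genes to the left and is above 0 in both panels.

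The unfolded protein response, the pathway that wolframin is best known for restraining, showed no call. Of 34 measured members 0 passed in limma with or without moderated variances, against 1.98% of all genes called. In limma 7 had an unadjusted p under 0.05, against 12% of all probesets. The median was -0.03 with 20 differences below 0. At the share of all genes few or no calls fall in a list of this size, so 0 calls do not show an unchanged pathway. The chaperone Hspa5 ran from 11.93 to 12.37 (median 12.25) in HZ and from 11.98 to 12.88 (median 12.25) in KO mice (log2 difference 0.13, SE 0.11, adjusted p = 0.684). Ddit3 (0.09, adjusted p = 0.656), Xbp1 (-0.00, adjusted p = 0.999) and the sensor kinase Eif2ak3 (0.31, adjusted p = 0.0723) did not pass either. Heat shock (15 measured), interferon-stimulated (20) and DNA replication genes (29) also had 0 calls in both fits. Their medians were 0.04, -0.09 and -0.03, with 2, 4 and 2 members at an unadjusted p under 0.05. The same limit holds for these short lists.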

How the data were processed

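Liver RNA of 48 male mice was hybridised to Affymetrix Mouse Gene 1.0 ST arrays, 1 per mouse. Per the labels and the methods, the authors made the deposited log2 values with the RMA method (Affymetrix Expression Console, version 1.1.2800.28061), which corrects background, gives all arrays the same distribution and summarizes the probes of a probeset, so a change shared by most transcripts would not be seen. No array was dropped and nothing was normalized again. Probesets were named from the platform annotation (21789 with 1 symbol, 1621 with several, 12146 with none), 21698 of them matched to RefSeq by gene ID, and a list gene was taken as its probeset with the highest mean.

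Means of the 6 groups were fitted to all 48 arrays with limma 3.58.1 in R 4.3.3 (42 residual degrees of freedom, eBayes), following the two-way design of the methods. Contrasts were KO minus HZ in saline, the same in VPA, their difference, and KO and HZ minus WT in saline, with two-sided p-values adjusted by Benjamini-Hochberg over 35556 probesets and called under 0.05. Single genes (152) were also compared by two-sided exact permutation over 12870 splits of 16 mice. Named genes were the 10 largest rises and the 10 largest falls among called probesets with 1 symbol and a mean of at least 5 in either group, called genes among the 100 nearest to Wfs1 on each side, members of 34 lists (620 genes, 556 measured) and the 5 smallest p-values of the treatment difference. Not all are printed. C9 and Slc2a5 lie outside this rule and were named after their values were seen. The comparison, genes and lists were chosen with earlier results of these data known. The fit was checked on simulated data. The number of arrays limits precision, mice are the replicates, and cages, litters and array batches are not given in the sources used here. Figures were drawn with matplotlib 3.10.9.

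Alternatives were eBayes with trend and robust estimation, array weights, median centring, a dim filter, the replicate number as a block, a clock index as covariate, the 16 arrays alone, no moderation, an adjusted p under 0.01, probesets with 1 symbol, 1 probeset per gene and leaving out each array. Leaving out KO replicates 2 and 8 together was added after seeing the data.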

Additional observations from a re-analysis of the deposited data

Results flagged for a closer look

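In 6 of 170 checks of a called gene in the HZ or the KO group, 1 mouse stood far from the other 7 by Dixon's test, which chance alone gives in about 1 in 20 groups. HZ replicate 6 accounted for 5 of them, all in sex-biased genes. It was highest for Sult3a1, at a log2 value of 4.19 (next 3.65), and for Hao2, at 6.02 (next 5.42). It was lowest for Nat8f5, at 8.03 (next 9.31), for Cyp4a12b, at 12.68 (next 13.26), and for Nat8, at 8.70 (next 9.61). Each of these values deviated from the other HZ mice towards the KO mean. Without HZ replicate 6 the male-biased list had 21 lower members and the female-biased list 8 higher ones. The sixth was KO replicate 1 for Cyp7a1, at 10.02 (next 11.70).

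The KO minus HZ difference was not the same in saline and VPA mice, by the test of the treatment difference, for 22 of 152 genes examined by name, beside 65 of all 19938 genes (0.326%). The 22 include 5 named for the smallest p-values of this difference and Slc2a5, named after its value was seen, so the share is not a result. Among clock and rhythmic genes the treatment difference (saline minus VPA, log2) was 1.67 for Arntl, 0.68 for Clock, 0.87 for Nfil3, -1.04 for Bhlhe41, -2.07 for Per3, -2.40 for Dbp, -0.93 for Tef, -0.86 for Nr1d2, -1.67 for Wee1 and 1.09 for Avpr1a. Among metabolic and transport genes it was -0.97 for Msmo1, -0.66 for Aldh1a1, -0.63 for Aldh1a7, 1.26 for Slc30a10, -0.81 for Oat, -0.80 for Entpd5, -0.73 for Car5a, -0.50 for Hsd17b10 and -1.42 for the fructose transporter Slc2a5. Near Wfs1 it was 0.76 for Rell1, -0.88 for Ugdh and -0.52 for Rbm47. Adjusted p-values from limma lay between 0.000211 and 0.0427. The clock index is made in part from 8 of these genes (Arntl, Clock, Nfil3, Bhlhe41, Per3, Dbp, Tef and Nr1d2).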

How the results depend on the processing

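No named gene changed sign where it was called. Of 85 called genes examined by name 57 kept the call in all 16 omissions of 1 mouse, 68 without KO replicates 2 and 8, 43 in the fit of the 16 arrays and 34 with the clock index (2 are part of it). Counts moved by more than 1.5 times as follows, first for all called probesets (496), then higher (250) and lower (246). An adjusted p under 0.01 left 223, 94 and 129. The 16 arrays alone gave 214, 97 and 117, and at the methods' thresholds 45 in place of 68. With the clock index, and without the probesets of its own genes, there were 141, 65 and 76, and 0 in place of 76 for the treatment difference. Array weights gave 317 for the treatment difference and omitting KO replicates 2 and 8 gave 141, and that omission gave 166 higher. Leaving out each mouse gave 294 to 676 called, 122 to 354 higher, 172 to 322 lower, 54 to 86 at the methods' thresholds and 42 to 153 for the treatment difference. The extremes were KO replicates 4 (294) and 7 (676) and, for the treatment difference, HZ replicate 4 (42) and KO replicate 8 (153). Calls also moved without KO replicate 5 (313), higher calls without HZ replicate 5 or KO replicate 2 (141 each), KO replicate 5 (139) or KO replicate 4 (122), and the treatment difference without HZ replicate 5 (44), KO replicate 5 (46), HZ VPA replicate 1 (45), 4 (49) or 6 (50) or KO VPA replicate 7 or 8 (47 each). The cause was not tested. Other settings stayed within 1.5 times: 644 with array weights, 415 after median centring and 503 without moderation.

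The replicate block gave 582 called probesets, 484 of them among the 496, and 108 for the treatment difference. Same-numbered HZ and KO mice had residuals correlated by over 0.1 in 2 of 8 pairs (mean 0.017, other pairs -0.002), so a shared number was not treated as a pairing. The median log2 difference over all probesets was -0.013, and -0.008 after median centring. RMA values give no depth, and low probesets such as Sult3a1 in HZ mice understate large folds.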
